A study of Homo sapiens with 6 samples.

Results

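Ubiquitin E2 conjugating enzymes were examined in ribosome-associated mRNA from a human cell line, taking every gene of the deposited expression table whose symbol is UBE2, 1 letter and optional digits. The rule found 32 of the 16834 genes in the table. The cell cycle enzymes UBE2C, UBE2S and UBE2T make up 3 of them, and the other 29 cover the remaining ubiquitin E2 genes and the E2 genes of ubiquitin-like proteins. The rule used symbols and no measured value, and pseudogenes and UBE2QL1 do not match it.

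RNA was sequenced from 3 Flag-IPs and 3 HA-IPs of asynchronously growing HEK293-T Flp-In cells, a human embryonic kidney line. All 6 libraries come from cells that carry a single inserted copy of the same ccTaggedRP construct, in which the CAG promoter drives Flag-RPL10a-hCdt and HA-RPL10a-hGem as 1 bicistronic mRNA split between them by a self-cleaving peptide. The hCdt degron removes the Flag-tagged ribosomal protein from late S phase through mitosis, and the hGeminin degron removes the HA-tagged protein from late G1 into early S phase, so that the Flag-IP was designed to draw on cells in G0/G1 and the HA-IP on cells in G2/M. Both immunoprecipitations draw on an unsynchronized population, no library of input RNA or of untagged cells enters the comparison, and the labels do not say whether the replicates came from separate cultures, so that the p-values measure the spread between these libraries, which may be technical.

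Ubiquitin is passed along a chain of enzymes. An E1 enzyme activates it, an E2 enzyme carries it on a catalytic cysteine, and an E3 ligase brings the charged E2 to the substrate, with the E2 often setting which ubiquitin linkage is built. In dividing cells the best known E2 enzymes are UBE2C, which places the first ubiquitins on substrates of the anaphase-promoting complex (APC/C), and UBE2S, which extends those chains. UBE2T works in the Fanconi anemia DNA repair pathway, where it adds ubiquitin to FANCD2 and FANCI.

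The sequences shown here describe some of the members, and no fold change below depends on them. The first pair are upstream windows of cell cycle E2 genes in RefSeq (GRCh38.p14), written 5′ to 3′ on the gene's own strand. Capitals mark the CCAAT box, CCAAT or its reverse complement ATTGG, and the cell cycle homology region (CHR), TTTGAA or TTTAAA on either strand, an element known from promoters of mitotic genes. The UBE2S window, chr19:55407789-55408038 on the minus strand, ends at the base before the gene's start and holds 1 CCAAT match and 0 CHR matches.

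UBE2S: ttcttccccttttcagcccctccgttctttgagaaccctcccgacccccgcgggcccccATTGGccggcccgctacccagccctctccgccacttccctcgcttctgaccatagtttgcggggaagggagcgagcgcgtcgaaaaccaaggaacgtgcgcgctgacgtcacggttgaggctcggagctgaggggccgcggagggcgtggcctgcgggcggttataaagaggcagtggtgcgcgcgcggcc

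The UBE2T window, chr1:202341985-202342186 on the minus strand, was cut to the 202 bases that lie before every annotated start of the gene, and holds 2 CCAAT matches and 1 CHR match.

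UBE2T: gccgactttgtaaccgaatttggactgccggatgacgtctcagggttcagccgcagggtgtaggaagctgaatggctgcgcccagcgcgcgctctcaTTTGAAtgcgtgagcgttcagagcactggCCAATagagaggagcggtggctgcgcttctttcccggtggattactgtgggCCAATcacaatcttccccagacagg

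Over all members, 25 of 32 matched the RefSeq table of start windows. Within 250 bases upstream, a CHR stood before any start of 4 of these 25 genes (16%) and a CCAAT box before any start of 8 (32%). Counted in the same way, per gene over any of its starts, the shares among all 27305 genes of the table were 25.5% and 37%, and per single window they were 21.9% and 32% of 35116. These matches describe letters in a window and nothing about binding. UBE2C was not among the 25 matched genes, so its upstream bases were not searched and it is named only.

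The other sequences are the first 60 coding bases of the UBE2D genes, closely related E2 genes that all lay higher in every Flag-IP than in any HA-IP. They are shown because similar copies can share reads. They were read from the canonical transcript of each gene (GENCODE release 44, GRCh38), run from the start codon, and carry in capitals each base that differs from UBE2D3.

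UBE2D1: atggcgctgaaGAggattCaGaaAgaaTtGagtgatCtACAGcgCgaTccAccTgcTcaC
UBE2D2: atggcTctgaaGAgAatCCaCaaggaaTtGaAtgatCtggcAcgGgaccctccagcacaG
UBE2D3: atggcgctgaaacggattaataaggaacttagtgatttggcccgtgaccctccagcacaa
UBE2D4: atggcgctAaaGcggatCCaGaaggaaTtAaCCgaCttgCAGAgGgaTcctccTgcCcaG

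UBE2D1, UBE2D2 and UBE2D4 differ from UBE2D3 at 18, 14 and 19 of these 60 bases. Over the whole coding sequence of 441 bases, identity to UBE2D3 was 78.46% for UBE2D1, 86.62% for UBE2D2 and 77.1% for UBE2D4. In the annotated exons, no 150-base window of UBE2D1, UBE2D2 or UBE2D3 occurred in another gene, and 10.5% of the windows of UBE2D4 did.

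The libraries held 23174532 to 33429519 reads on the listed genes in the Flag-IPs and 28737728 to 44134833 in the HA-IPs, and no member had fewer than 50 reads in any library. The unit below is the normalized count, which is the number of reads divided by a size factor of the library, and every log2 fold change is the difference of log2(normalized count + 1) between HA-IPs and Flag-IPs, positive where the HA-IPs were higher. A gene is called where the Benjamini-Hochberg adjusted p of limma over all 16834 genes is at most 0.05. The 9 epithelial and HEK293 markers summed to 0.244% to 0.266% of each library. Of these, EPCAM was called higher in the HA-IPs at a log2 fold change of 0.34, against 5.79% of all genes. PAX2 was called higher in the Flag-IPs at -0.79, against 7.1% of all genes, and 7 were not called. Muscle transcripts moved with the tag: 17 of 20 heart muscle markers were in the table, all 17 were called higher in the Flag-IPs, and they summed to 226075, 162687 and 106651 normalized counts in Flag-IPs 1 to 3 against 4220, 2885 and 22037 in HA-IPs 1 to 3. None of these 17 was at 0 in every HA-IP, and the defining MYH7 stood at 478 to 6766 there and at 42902 to 83895 in the Flag-IPs. Fibroblast markers, 10 of 12 in the table, summed to 17712 to 19933 in the Flag-IPs and 13878 to 14924 in the HA-IPs. Among these 10, 6 were called higher in the Flag-IPs and 1, FN1, in the HA-IPs. FN1 had the highest counts of the list, with means of 7890 in the Flag-IPs and 9031 in the HA-IPs. The median log2 fold change of the 10 was -1.09, and the values ran from -4.82 for COL1A2 to 0.62. All 6 libraries come from 1 cell line, and where these transcripts came from was not tested. Their part in the E2 values below was not tested either.

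The E2 genes as a family were mostly higher in the Flag-IPs. Of the 32 members, 11 (34.4%) were called higher in the Flag-IPs, where 7.1% of all genes were. Another 2 (6.25%), UBE2S and UBE2O, were called higher in the HA-IPs, where 5.79% of all genes were, so that this share lies near the background. The other 19 were not called. All 3 Flag-IPs lay above all 3 HA-IPs in 18 members, against 16.1% of all genes, and the reverse held in 3 members, again against 16.1% of all genes. A negative fold change was found for 25 of the 32, against 8577 of all 16834 genes. The median log2 fold change was -0.22 over the members against -0.0049 over all genes. Among the 12221 genes within the members' range of mean counts, 7.04% were called higher in the Flag-IPs and the median was 0.01. The count of 11 fell to 4 without Flag-IP 2, 7 without HA-IP 1 and 6 without HA-IP 2. Over all genes the calls in either direction fell from 2171 to 620, 780 and 900 in the same fits. DESeq2 called 14 members higher in the Flag-IPs, where it called 7.31% of all genes, and 2 in the HA-IPs, where it called 6.2%, and edgeR called 12 and 2 against 7.31% and 5.35%. The calls rest on the modelled trend of the variance: limma without it called 0 members in either direction, against 1.08% of all genes for the Flag-IPs and 0.0356% for the HA-IPs. At an unadjusted p under 0.05 that fit had 13 members higher in the Flag-IPs and 2 in the HA-IPs, where 3883 of all 16834 genes passed in either direction. With the replicate number as a block limma called 9 members higher in the Flag-IPs and 1 in the HA-IPs, against 5.41% and 4.47% of all genes.

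**Figure D1:**
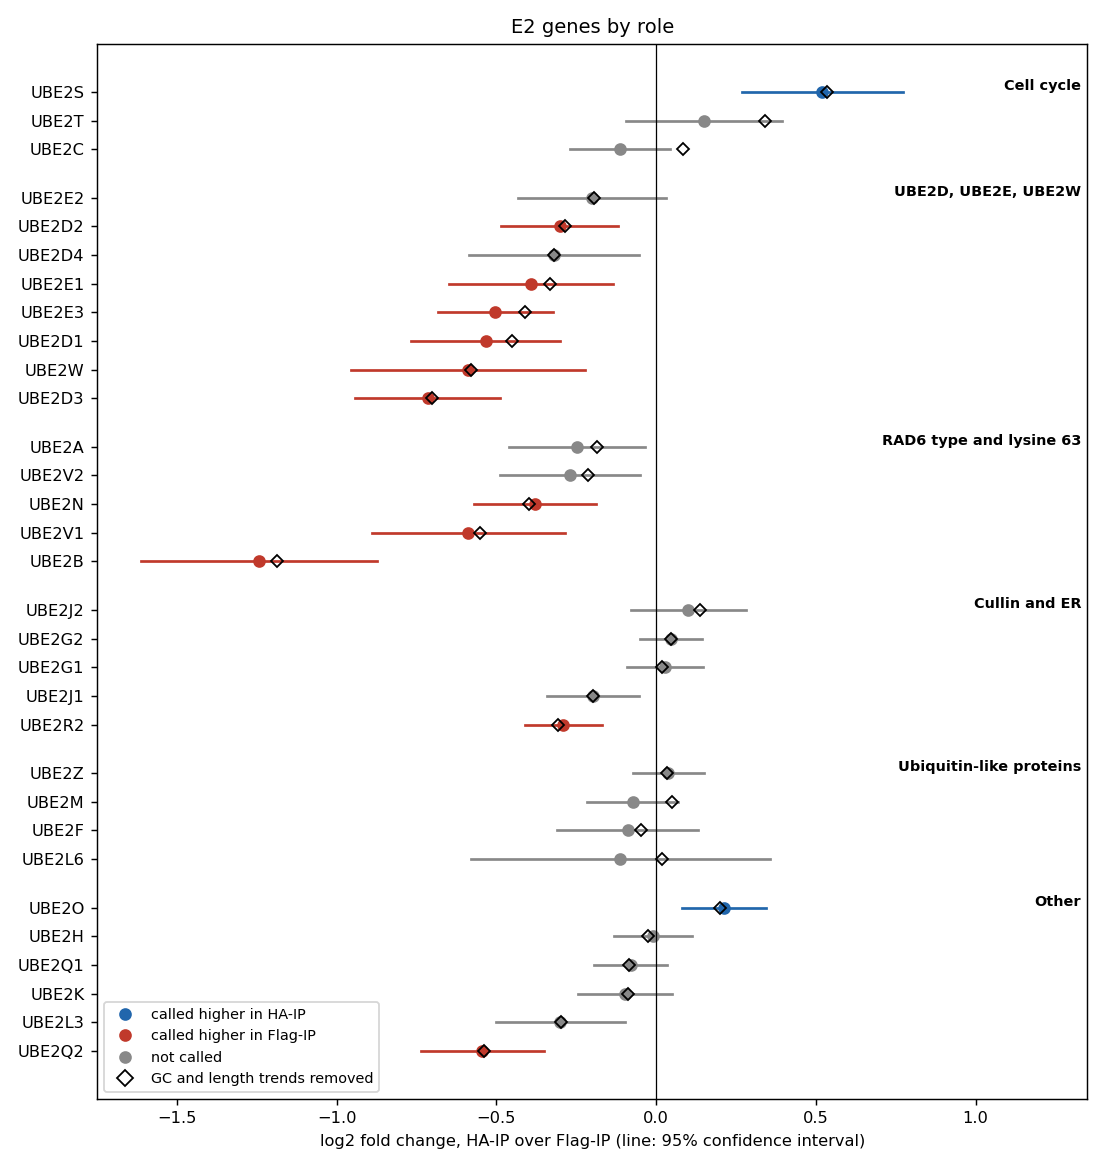
Points show the log2 fold change of 31 of the 32 E2 genes, HA-IP over Flag-IP, with its 95% confidence interval from limma as a line, grouped by role and coloured by call, and open diamonds show the value once GC and length trends were taken out. UBE2S and UBE2O lie above 0 with their intervals, all 8 points of the UBE2D, UBE2E and UBE2W group lie below 0, and UBE2B is the lowest at -1.24.

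The 3 cell cycle enzymes did not move together. UBE2S rose in the HA-IPs, while neither UBE2C nor UBE2T passed the test, and their median log2 fold change was 0.15 against -0.25 for the other 29 members. The median of the 3 is the value of UBE2T, which was not called, and the difference between the sets was not tested.

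UBE2S (ENSG00000108106, chr19:55399745-55407788, minus strand), whose upstream window is printed above, measured 4674, 5206 and 6544 normalized counts in Flag-IPs 1 to 3 and 8322, 8452 and 6683 in HA-IPs 1 to 3. The groups did not overlap, but the highest Flag-IP and the lowest HA-IP, both replicate 3, lay close together. The mean was 1.43-fold higher in the HA-IPs, 7819 ± 986 against 5475 ± 964 (SD, n = 3 in both groups), or 0.52 on the log2 scale, with an SE of 0.11, a 95% interval of 0.27 to 0.77 and an adjusted p of 0.014 in limma. The fold change stayed between 0.41 and 0.66 when any 1 library was left out, and the call was lost without Flag-IP 2, HA-IP 1 or HA-IP 2, at adjusted p of 0.077, 0.079 and 0.076 in limma. A processed copy, UBE2SP2, holds 4.61% of the 150-base windows of UBE2S.

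UBE2C (ENSG00000175063, chr20:45812576-45816957, plus strand) measured 669, 657 and 718 normalized counts in the Flag-IPs against 612, 650 and 625 in the HA-IPs. All Flag-IPs lay above all HA-IPs by a narrow gap, in the direction opposite to UBE2S. The log2 fold change of -0.11 had a 95% interval of -0.27 to 0.04 and an adjusted p of 0.35 in limma. It came to 0.08 once the GC and length trends of the libraries were taken out, with an adjusted p of 0.52 in limma, so that even its sign depends on that step. The interval of UBE2C does not reach the lower end of that of UBE2S, and the difference between the genes was not tested.

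UBE2T (ENSG00000077152, chr1:202331544-202341984, minus strand) measured 718, 517 and 581 normalized counts in the Flag-IPs against 696, 615 and 688 in the HA-IPs. The groups overlapped, since Flag-IP 1 was the highest of all 6 libraries. The log2 fold change was 0.15, with a 95% interval of -0.09 to 0.39 and an adjusted p of 0.43 in limma. After the GC and length trends were removed it was 0.34 with an adjusted p of 0.022 in limma, which would make UBE2T a called gene. With 1 trend removed alone UBE2T was not called. It stood at 0.16 without the GC trend and 0.34 without the length trend, at adjusted p of 0.31 and 0.06 in limma.

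**Figure D2:**
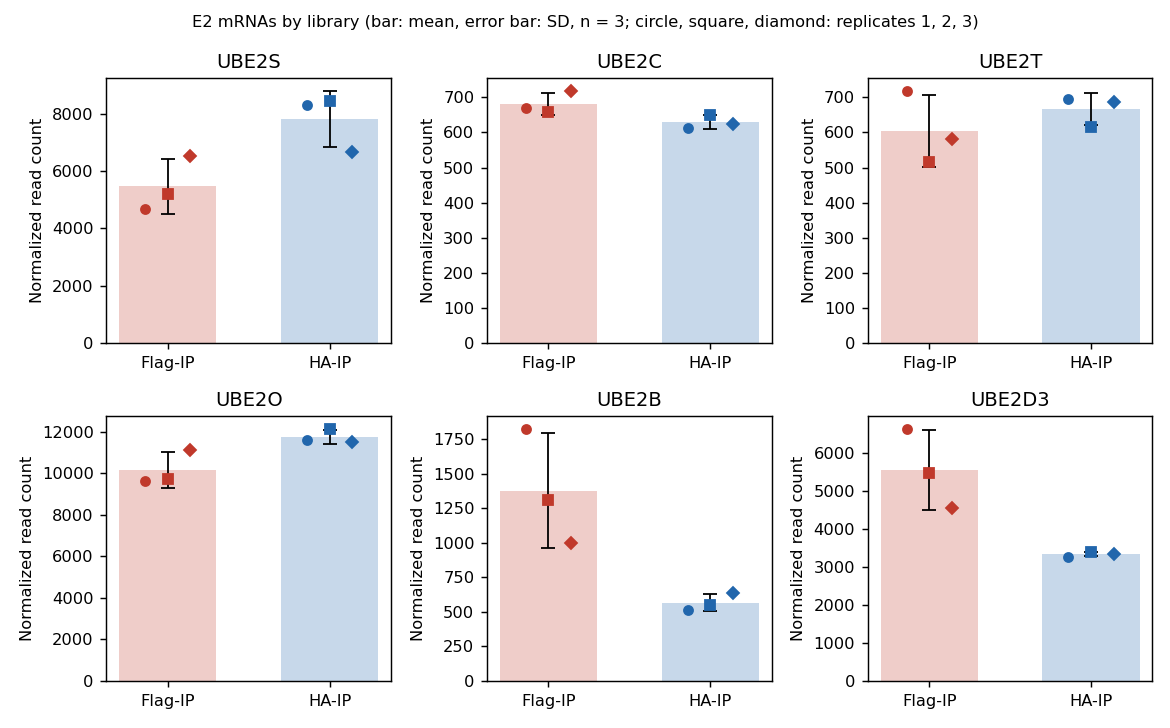
Normalized read counts of 6 E2 genes on linear axes from 0, with bars for the mean of 3 libraries, error bars for the SD and circles, squares and diamonds for replicates 1, 2 and 3. UBE2S and UBE2O sit higher in the HA-IPs, UBE2B and UBE2D3 higher in the Flag-IPs with Flag-IP 1 highest, and UBE2C and UBE2T differ little.

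UBE2D and UBE2E enzymes serve a broad range of E3 ligases, often placing the first ubiquitin, and UBE2W adds ubiquitin to the N-terminus of proteins. All 8 members of this group were higher in every Flag-IP than in any HA-IP, against 16.1% of all genes, and 6 passed the test, against 7.1% of all genes. Their median log2 fold change was -0.45.

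UBE2D3 (ENSG00000109332, chr4:102794383-102868896, minus strand) had the largest difference of the group. It measured 6631, 5485 and 4541 normalized counts in the Flag-IPs against 3271, 3400 and 3352 in the HA-IPs. The Flag-IPs were spread widely and the HA-IPs hardly at all. The mean was 1.66-fold higher in the Flag-IPs, with a log2 fold change of -0.72, a 95% interval of -0.94 to -0.49 and an adjusted p of 0.0018 in limma, and the call held without any 1 library.

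UBE2D1 (chr10:58334979-58370751, plus strand) measured 669, 687 and 527 in the Flag-IPs against 435, 454 and 404 in the HA-IPs, with a log2 fold change of -0.53 and an adjusted p of 0.0091 in limma. UBE2D2 (chr5:139526431-139628434, plus strand) measured 3152, 3842 and 4014 against 2761, 3127 and 3008, with a log2 fold change of -0.30 and an adjusted p of 0.037. UBE2D2 differed from its relatives in that Flag-IP 1 was its lowest Flag-IP and lay just above the highest HA-IP, and its call held in 1 of the 6 fits that leave out a library. UBE2D4, the least abundant of the 4, measured 223, 218 and 262 in the Flag-IPs against 203, 174 and 185 in the HA-IPs, and its log2 fold change of -0.32 was not called at an adjusted p of 0.11 in limma.

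UBE2E3 (chr2:180967248-181076585, plus strand) measured 1700, 1458 and 1337 normalized counts in the Flag-IPs against 1020, 1059 and 1075 in the HA-IPs. Its log2 fold change of -0.50 had an adjusted p of 0.0033 in limma, and the call held without any 1 library. UBE2E1 (chr3:23805955-23891640, plus strand) measured 1564, 1206 and 1122 against 863, 998 and 1084, a log2 fold change of -0.39. The adjusted p of UBE2E1 was 0.049 in limma, just inside the threshold, and 60.2% of its 150-base windows also lie in NKIRAS1, a gene on the opposite strand. Its call held in 1 of the 6 fits that leave out a library, and its log2 fold change was -0.25 without Flag-IP 1. UBE2E2, at 409, 396 and 452 against 386, 317 and 394, had a log2 fold change of -0.20 and an adjusted p of 0.25 in limma. UBE2W measured 469, 351 and 298 in the Flag-IPs against 294, 212 and 229 in the HA-IPs, with a log2 fold change of -0.59 and an adjusted p of 0.04 in limma. Flag-IP 3 and HA-IP 1 of UBE2W nearly touched, and its call held in 2 of the 6 fits that leave out a library.

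UBE2A and UBE2B are the human counterparts of yeast RAD6 and act on PCNA and histone H2B. UBE2N pairs with UBE2V1 or UBE2V2, which lack the catalytic cysteine, to build signalling chains. All 5 had a negative fold change, 3 were called higher in the Flag-IPs, and the median was -0.38.

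UBE2B (ENSG00000119048, chr5:134371184-134392108, plus strand) showed the largest difference of all 32 members. It measured 1823, 1310 and 999 normalized counts in the Flag-IPs against 512, 550 and 636 in the HA-IPs. The lowest Flag-IP stood well above the highest HA-IP. The mean was 2.43-fold higher in the Flag-IPs, with a log2 fold change of -1.24, an SE of 0.17, a 95% interval of -1.61 to -0.87 and an adjusted p of 0.0013 in limma. The call held without any 1 library, at log2 fold changes of -1.45 to -1.02. Its near twin UBE2A measured 1121, 1000 and 846 against 799, 891 and 795, and the groups overlapped at a log2 fold change of -0.25 and an adjusted p of 0.12 in limma. The interval of UBE2A, -0.46 to -0.04, lies apart from that of UBE2B, and the difference between the genes was not tested.

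UBE2N (chr12:93405673-93441947, minus strand) measured 3226, 2625 and 2494 in the Flag-IPs against 1985, 2153 and 2243 in the HA-IPs, with a log2 fold change of -0.38 and an adjusted p of 0.017 in limma. UBE2V1 (chr20:50081124-50115959, minus strand) measured 378, 370 and 272 against 206, 219 and 247, with a log2 fold change of -0.59 and an adjusted p of 0.018 in limma. Both calls held in 3 of the 6 fits that leave out a library, being lost without Flag-IP 2, HA-IP 1 or HA-IP 2. Reads of these genes may be split with neighbours, since 48.9% of the windows of UBE2N lie in NUDT4 on the opposite strand and 97.8% of those of UBE2V1 in the readthrough gene PEDS1-UBE2V1. UBE2V2, the other partner of UBE2N, measured 1604, 1313 and 1166 against 1051, 1138 and 1168, and was not called at a log2 fold change of -0.27 and an adjusted p of 0.10 in limma.

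UBE2R2 extends chains with cullin ligases, UBE2G1 works with them as well, and UBE2G2, UBE2J1 and UBE2J2 serve the degradation of proteins from the endoplasmic reticulum. Of these 5, UBE2R2 alone was called, higher in the Flag-IPs, where 7.1% of all genes were. UBE2R2 (chr9:33817160-33920399, plus strand) measured 1965, 2110 and 1971 normalized counts in the Flag-IPs against 1620, 1630 and 1690 in the HA-IPs. With tight groups, its modest log2 fold change of -0.29 reached an adjusted p of 0.007 in limma. UBE2J1 also had its Flag-IPs, 1662 to 1936, above its HA-IPs, 1495 to 1571, but was not called at -0.20 and an adjusted p of 0.071 in limma. UBE2G1, UBE2G2 and UBE2J2 had log2 fold changes of 0.03, 0.05 and 0.10, and their 95% intervals, -0.09 to 0.15, -0.05 to 0.14 and -0.08 to 0.28, hold 0. At the same total per library UBE2G1 came to -0.03 and UBE2G2 to -0.01.

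Among the E2 genes of ubiquitin-like proteins, 4 uncalled members can be described. UBE2M and UBE2F, which carry NEDD8, had log2 fold changes of -0.07 and -0.09 with 95% intervals of -0.22 to 0.07 and -0.31 to 0.13. UBE2Z, which can carry the modifier FAT10, stood at 0.04 with an interval of -0.07 to 0.15. UBE2L6, the E2 of ISG15, was the least counted member at 54.2 to 77.5 in the 6 libraries. Its wide interval of -0.58 to 0.36 holds 0 and also the log2 fold changes of several called members, such as UBE2E3 at -0.50.

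UBE2O, a very large E2 that also acts as its own E3, went the other way. UBE2O (ENSG00000175931, chr17:76389456-76453152, minus strand) measured 9632, 9698 and 11138 normalized counts in the Flag-IPs against 11598, 12126 and 11513 in the HA-IPs. The gap between Flag-IP 3 and HA-IP 3 was small. The log2 fold change was 0.21, with a 95% interval of 0.08 to 0.34 and an adjusted p of 0.039 in limma, and the call held in 1 of the 6 fits that leave out a library.

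UBE2Q2 (chr15:75843307-75901078, plus strand) measured 645, 683 and 587 in the Flag-IPs against 434, 408 and 470 in the HA-IPs, with a log2 fold change of -0.54 and an adjusted p of 0.0033 in limma that held without any 1 library. Its paralog UBE2Q1 had a log2 fold change of -0.08 and an interval of -0.19 to 0.04, which does not reach that of UBE2Q2, -0.74 to -0.35. UBE2L3, an E2 of HECT and RBR ligases, measured 3595, 2849 and 2645 against 2363, 2484 and 2474. It lay just outside the threshold at -0.30 and an adjusted p of 0.055 in limma, and inside it in edgeR at 0.045 and DESeq2 at 0.01. UBE2K and UBE2H had log2 fold changes of -0.10 and -0.01, with intervals of -0.25 to 0.05 and -0.13 to 0.11.

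**Figure D3:**
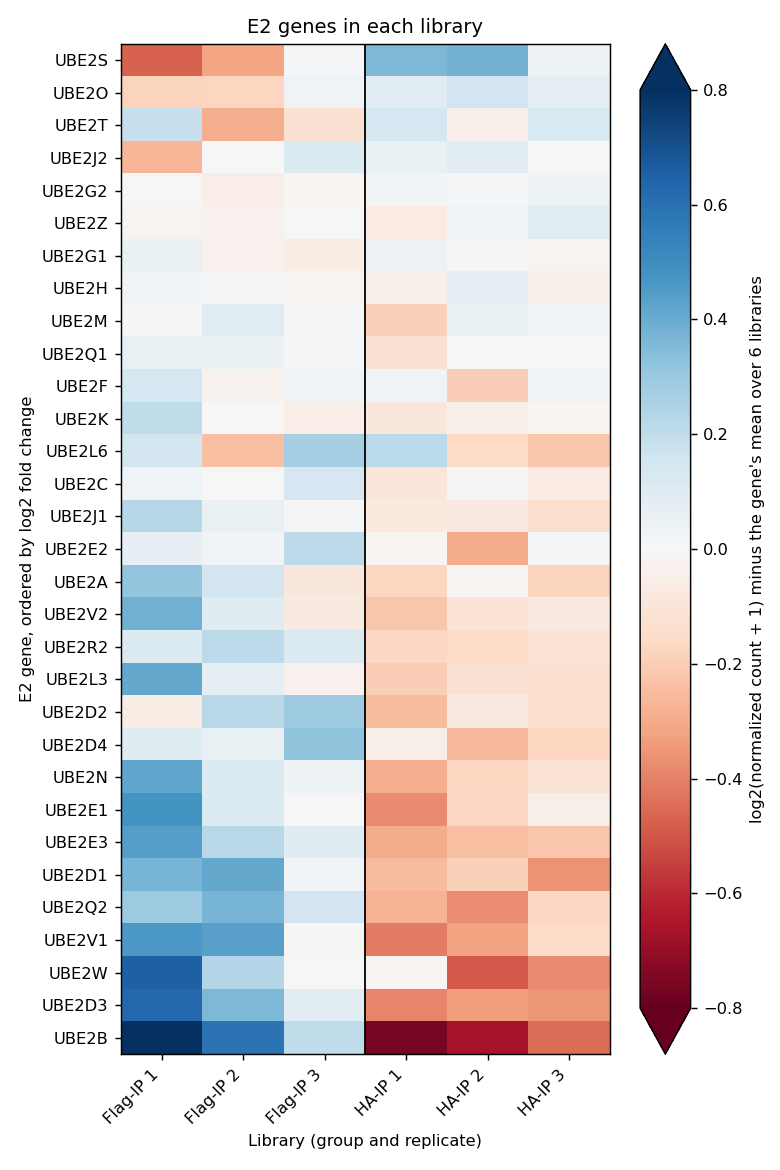
Each cell is the log2(normalized count + 1) of 1 of 31 E2 genes in a library minus its mean over the 6 libraries, with genes in order of their log2 fold change, blue for values above the mean and red for values below, and colours saturated at 0.8. The lower rows turn from blue in the Flag-IPs to red in the HA-IPs and are palest in Flag-IP 3.

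The Flag-IPs differed among themselves in the called genes. The median of the 11 members called higher in the Flag-IPs, each gene centred on its mean over the 6 libraries on the log2 scale, was 0.44, 0.23 and 0.09 in Flag-IPs 1 to 3 and -0.29, -0.24 and -0.17 in HA-IPs 1 to 3. These genes were picked by their call, which sets the direction between the groups. Over all 29 members outside the cell cycle set, the medians were 0.21, 0.09 and 0.02 in the Flag-IPs. In the HA-IPs they were -0.17, -0.12 and -0.11. The summed heart muscle markers given above had the same order of Flag-IPs, with replicate 1 highest and replicate 3 lowest, and were likewise highest among the HA-IPs in replicate 3. Among the called members, UBE2B, UBE2D3, UBE2E1, UBE2E3, UBE2N, UBE2V1 and UBE2W followed that order in the Flag-IPs too. UBE2D1, UBE2D2, UBE2Q2 and UBE2R2 did not. The part of the muscle transcripts in these differences was not tested.

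Levels between genes were compared as normalized counts per kilobase of the canonical transcript, averaged over the 6 libraries. UBE2M was the most abundant member at 3465 per kilobase, followed by UBE2S at 2597, UBE2O at 2037, UBE2G2 at 1795 and UBE2Z at 1605. UBE2C and UBE2T stood in the middle of the family at 843 and 724. UBE2L6 at 53.4, UBE2D4 at 53.0 and UBE2W at 36.9 were the lowest. Among the UBE2D genes, UBE2D2 at 1311 and UBE2D3 at 1192 far exceeded UBE2D1 at 202. The level of UBE2D3 was 1489 ± 281 in the Flag-IPs and 896 ± 17.5 in the HA-IPs, and that of UBE2D2 was 1450 ± 180 and 1172 ± 73.7 (SD, n = 3).

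The members called higher in the Flag-IPs had transcripts poor in GC. Their median GC content was 40.2%, against 47.9% for the 19 members not called, 57% for UBE2S and UBE2O, and 49.1% for all annotated genes. Over the 32 members, Pearson's r between GC content and log2 fold change was 0.58 and Spearman's rho 0.61, a description across genes that share the same 6 libraries. Over 16683 annotated genes r was 0.03. After the trends with GC content and length were removed in each library, 13 members were called higher in the Flag-IPs, where 7.39% of all genes were, and 3 (UBE2S, UBE2O and UBE2T) in the HA-IPs, where 8.15% of all genes were.

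**Figure D4:**
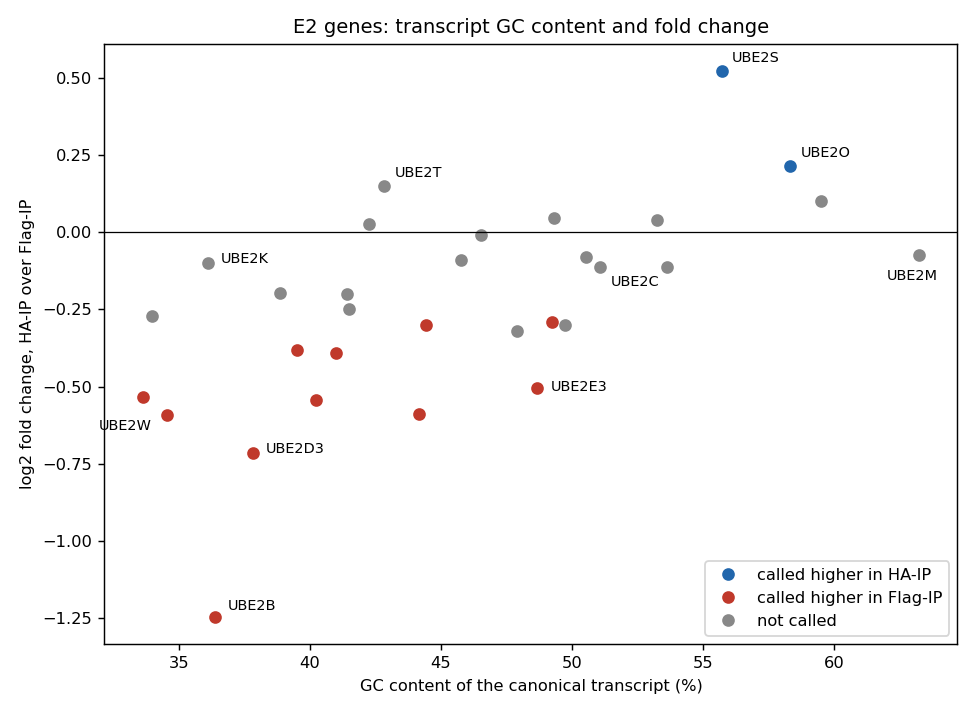
Each point is 1 of 31 E2 genes, with the GC content of its canonical transcript in percent on the horizontal axis and its log2 fold change, HA-IP over Flag-IP, on the vertical axis, coloured by call. Members called higher in the Flag-IPs lie between 33.6% and 49.2% GC, and the 2 called higher in the HA-IPs at 55.7% and 58.3%.

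Other genes of the pathway were called in both directions, and their counts stand against 5.79% of all genes for higher HA-IPs and 7.1% for higher Flag-IPs. Of 9 genes with an E2 fold that the symbol rule leaves out, BIRC6, a giant E2/E3 hybrid like UBE2O, was called higher in the HA-IPs at a log2 fold change of 0.26 and an adjusted p of 0.036 in limma, and was the 1 called gene. CDC34, the paralog of UBE2R2, stood at -0.28 with an adjusted p of 0.072. Of 10 E1 enzymes, the ubiquitin E1 genes UBA1 and UBA6 were called higher in the HA-IPs at 0.23 and 0.24. UBA1 measured 49341, 51459 and 55369 in the Flag-IPs against 60182, 61895 and 61241 in the HA-IPs. SAE1, a subunit of the SUMO E1, was called higher in the Flag-IPs at -0.24, with an adjusted p of 0.016 in limma. These calls were not firm against the loss of a library: the E1 calls were all lost without Flag-IP 2 or HA-IP 1, and that of BIRC6 held in 1 of the 6 fits, without Flag-IP 3.

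The partners of the cell cycle E2 enzymes had calls in both directions, in lists of few genes that stand against the same 5.79% and 7.1% of all genes. Of 16 subunits and activators of the APC/C, the ligase of UBE2C and UBE2S, 3 were called higher in the HA-IPs and 3 higher in the Flag-IPs, with a median of 0.07. The activator CDC20 measured 6083, 5891 and 6011 in the Flag-IPs against 6905, 6953 and 7260 in the HA-IPs, a log2 fold change of 0.23 with an adjusted p of 0.0084 in limma. The other activator, FZR1, rose by 0.19 and the scaffold subunit ANAPC1 by 0.19. The small subunits ANAPC11, which carries the RING domain, ANAPC13 and ANAPC16 were higher in the Flag-IPs at -0.34, -0.38 and -0.45. Of 5 genes listed as inhibitors of the APC/C or regulators of its inhibition, the checkpoint gene BUB1B was called higher in the HA-IPs at 0.23 with an adjusted p of 0.017 in limma. Of 15 Fanconi anemia partners of UBE2T, 3 were called higher in the HA-IPs: FANCM at 0.27, and the UBE2T substrates FANCD2 at 0.23 and FANCI at 0.19. FANCD2 measured 7721, 7470 and 8142 in the Flag-IPs against 9129, 8926 and 9295 in the HA-IPs. Without Flag-IP 2 the calls of the APC/C, inhibitor and Fanconi lists in the HA-IPs were all lost, as were those of the Fanconi list without HA-IP 1 or HA-IP 3 and that of BUB1B without HA-IP 2 or HA-IP 3. The APC/C list kept at most 1 call in each direction without any 1 HA-IP, and at the same total per library 1 of its genes was called higher in the HA-IPs.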

How the data were processed

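Per the submitters' processing notes, the authors used Trimmomatic 0.36 on paired reads of 150 bases, STAR 2.5.2b with GRCh38, and featureCounts of Subread 1.5.2 to count reads per gene. Genes needed at least 10 reads in 3 or more libraries to be kept. The use of strand in counting is not given in the sources used here. The authors deposited a normalized signal per gene and library, read counts divided by a size factor (the notes name DESeq2 3.16). The table deposited by the authors also holds the log2 fold changes and p-values of their own comparison, which were not used. Whole reads were recovered from the step between values in each library, for 100% of values within 0.01 read.

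Differences between HA-IPs and Flag-IPs were tested over all 16834 genes on log2(normalized count + 1) with limma 3.58.1 (R 4.3.3), two-sided, with the variance modelled along the mean, and the 6 libraries in 2 groups without covariates. This scale understates the change of low genes. edgeR 4.0.16 and DESeq2 1.42.0 on the recovered reads were alternatives, as were other pseudocounts (0.1 and 10), a mean of at least 50, quantile, total and upper quartile scaling, limma without the trend, a replicate block and leaving out each library. GC and transcript length trends were fitted and subtracted per library as splines of 5 degrees of freedom. Removing either trend alone, and both with the block, was chosen after seeing the data. Annotation came from GENCODE release 44, which holds 16683 of the identifiers (99.1%). On simulated data for this comparison over 16834 genes, limma recovered 200 of 200 genes changed by 1 on the log2 scale, with 10 false calls. The simulation gave every gene the same dispersion and changed only genes with higher counts. It does not measure the recovery of smaller changes, such as those of most called members. With 3 libraries per group an exact permutation test could not go below 0.1.

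The members and lists were chosen with earlier results of these data known. Named with values are UBE2C, UBE2S, UBE2T, every called member and the 3 highest and 3 lowest fold changes at a mean of at least 100. Of other lists, called genes or the 2 largest changes at that mean were named. Other members with values per library and MYH7 were chosen after their values were seen. Proteins were not analysed here. Values of a few genes of the pathway, 1 member among them, are not reported here, although counts and medians include them.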

Additional observations from a re-analysis of the deposited data

How the results depend on the processing

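Of 640 recomputed fold changes of E2 genes, 544 kept direction and side of the threshold, 56 lost the call, 20 gained it and 20 changed sign. Without the trend of the variance on the mean, 188 genes were called in place of 2171. That limma fit called 0 E2 genes in each direction, with 2 higher in the HA-IPs and 13 higher in the Flag-IPs at an unadjusted p under 0.05 (3883 of all 16834 genes in either direction), and the adjusted p of UBE2S, at an unchanged 0.52, was 0.15 in limma. The count of E2 genes higher in the HA-IPs went from 2 to 1 under quantile normalization, the same total, the replicate block and removal of the length trend. Leaving out 1 library at a time gave 620 to 3059 called genes, 0 to 2 E2 genes higher in the HA-IPs and 4 to 15 higher in the Flag-IPs. UBE2S then ranged from 0.41 to 0.66, UBE2C from -0.14 to -0.08 and UBE2T from 0.04 to 0.28. The median of the cell cycle genes ranged from 0.04 to 0.28 and that of the other E2 genes from -0.28 to -0.17.

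With GC and length trends removed, UBE2C came to 0.0833, UBE2T and the cell cycle median to 0.3411, UBE2L6 to 0.0195 and UBE2M to 0.0511, all the same with the block added. With the length trend alone removed, the values were 0.0886 for UBE2C, 0.3358 for the median, 0.0225 for UBE2L6 and 0.0696 for UBE2M. UBE2H came to 0.0214 with the GC trend removed. The other sign changes were likewise of uncalled genes near 0. Quantile normalization gave -0.0005 for UBE2G2, 0.0650 for UBE2L6 and -0.0062 for UBE2Z, and the same total gave -0.0258 for UBE2G1, -0.0073 for UBE2G2 and -0.0152 for UBE2Z. Leaving out 1 library gave -0.0440 to 0.0087 for UBE2H, -0.0091 to 0.1820 for UBE2J2 and -0.1184 to 0.0035 for UBE2M. The cause of these changes was not tested.

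The deviations of same-numbered libraries from their group means gave r of -0.156, 0.0306 and -0.31 over 13141 genes. Pairs with different numbers gave -0.243 to 0.302. With 3 libraries per group these values are not independent of each other. They cannot decide whether the numbers pair the libraries. With the replicate block 1662 genes were called, of which 10 were E2 genes (9 higher in the Flag-IPs), with UBE2O, UBE2E1 and UBE2V1 no longer called.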
